A study of Homo sapiens with 7 samples.

Results

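Anchors shared by ZNF143, CTCF and RAD21 are places in the genome where chromatin loops of all 3 proteins ended in wild-type cells. They were chosen by position alone. The overlapping anchors of the wild-type ZNF143 loop list were merged, and a merged anchor was kept when a loop anchor of the wild-type CTCF list and a loop anchor of the wild-type RAD21 list both lay within 5 kb of it. The rule kept 4739 of 9711 ZNF143 anchors, which is 48.8% (95% Wilson interval 47.8 to 49.8), or 22.3% when CTCF and RAD21 loops needed 5 or more counts. The other ZNF143 anchors were 1097 near CTCF alone, 677 near RAD21 alone and 3198 near neither protein, called ZNF143-only anchors below. For CTCF and RAD21 loops the shared anchors were set beside 6919 sites at which loops of CTCF and RAD21 ended with no ZNF143 anchor within 5 kb, called CTCF-RAD21 sites below.

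Loops were measured by HiChIP, a method that ligates DNA ends lying close together in fixed nuclei, pulls down the ligated fragments with an antibody and reads both ends. Wild-type HEC-1-B cells, a uterine adenocarcinoma line, were profiled with antibodies to ZNF143, CTCF and RAD21, and a derived line of genotype ZNF143KO with antibodies to CTCF and RAD21. A derived line of genotype CTCF-AID, in which CTCF carries an auxin-inducible degron, was profiled with the ZNF143 antibody at 0 h and after 24 h of auxin (IAA, 500 μM), in cells that express TiR1, the plant protein the degron needs. Each of the 7 groups held 1 library, so no difference below has a replicate check and no p-value is given, and all intervals cover counting error within those libraries only. The number of clones behind the derived lines is not given in the sources used here, and the loss of ZNF143 or of CTCF protein was not measured in these lists.

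CTCF binds DNA at a long, oriented motif. Cohesin, the ring complex to which RAD21 belongs, is thought to reel in chromatin as a growing loop until it meets bound CTCF, so many loops are held with CTCF and cohesin at their feet. ZNF143 is a zinc-finger activator that binds mainly at promoters, and its place in looping, next to CTCF or apart from it, has been debated. Anchors where all 3 proteins are found let the loops of each be read at the same place when ZNF143 or CTCF is removed.

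A loop list gives pairs of anchors with a whole-number count, taken here as supporting read pairs, and lists only loops with a count of 2 or more. A site missing from a list is therefore a site with no loop of 2 counts or no called anchor there, which is not proof that it lost its protein. The summed counts of the lists ran from 33460 (RAD21, ZNF143-deleted) to 143119 (ZNF143, CTCF-AID 0 h). Odd counts made up 10.5% and 13.2% of loops in the CTCF-AID lists and 25.4% to 31.9% in the other lists. Counts of the CTCF-AID lists may therefore stand for another number of read pairs than those of the other lists, and were also read divided by 2. The wild-type ZNF143 list and the lists from ZNF143-deleted cells had a different column layout from the others, so a difference in how lists were made cannot be told apart from the deletion in the CTCF and RAD21 comparisons, from the cell line where wild-type and CTCF-AID cells are compared, or from the antibody where ZNF143 is set beside CTCF or RAD21 in wild-type cells.

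The shared anchors were short regions spread unevenly over the chromosomes. Their median width was 1782 bp, with a range of 1061 to 12370 bp. Of the 4739, 4169 (88.0%, 87.0 to 88.9) overlapped both a CTCF and a RAD21 anchor, 199 overlapped an anchor of 1 of these proteins and 371 overlapped neither and lay within 5 kb of both. The anchor had identical coordinates in the wild-type CTCF list at 3097 members and in the RAD21 list at 2921. Requiring overlap in place of 5 kb left 42.9% of ZNF143 anchors as members, and 10 kb gave 54.4%. Chromosome 1 held 513 shared anchors and chromosome 19 held 502, while chromosomes 4 and X held 23 each. As a share of a chromosome's ZNF143 anchors they ranged from 29.5% (20.5 to 40.4) on chromosome X to 60.0% (56.0 to 63.8) on chromosome 12, and chromosome 19, with 1173 ZNF143 anchors, had 42.8%.

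Most shared anchors stood apart, and a part of them lay close together. The median gap between neighbours on a chromosome was 83.6 kb, and 702 of 4716 neighbouring pairs lay within 10 kb of each other. Since a loop was credited to a site when one of its anchors lay within 5 kb, such neighbours can share the same loops and are not independent. No other shared anchor lay within 10 kb of 3445 members (72.7%).

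The members nearest to the limit show what the rule separates. Just inside it, chr19:4179707-4180903 lay 4991 bp from both the nearest CTCF and the nearest RAD21 anchor, and its summed counts in wild-type cells were 76 for ZNF143, 39 for CTCF and 11 for RAD21. Also inside, chr3:14509108-14510441 lay 4990 bp from both, with counts of 4, 4 and 7. Just outside, chr19:50755073-50756475 lay 1094 bp from a CTCF anchor and 5014 bp from a RAD21 anchor, with counts of 2, 4 and 0. Also outside, chr22:43009542-43012067 lay 5020 bp from both, with a ZNF143 count of 27 and no CTCF or RAD21 loop within reach.

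In wild-type cells, shared anchors carried more CTCF loops and more RAD21 loops than sites where CTCF and RAD21 met without ZNF143. The mean number of CTCF loops was 4.25 (median 3, highest 34) at shared anchors and 2.41 (median 2, highest 18) at CTCF-RAD21 sites. For RAD21 the means were 3.48 (median 3, highest 35) and 2.26 (median 2, highest 18). At least 3 CTCF loops were present at 60.5% of shared anchors and 32.8% of CTCF-RAD21 sites, a difference of 27.7 points (25.9 to 29.5). RAD21 loops reached this number at 51.7% and 29.6%, a difference of 22.1 points (20.3 to 23.9). Summed over sites, the count per loop was also higher, at 5.11 and 3.91 for CTCF and 5.36 and 4.16 for RAD21. A loop joining 2 sites of a class entered this value at both of them. Shared anchors had to be listed for 3 proteins and CTCF-RAD21 sites for 2, and at least 1 loop of CTCF and of RAD21 was required of both.

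ZNF143 loops set the shared anchors apart much less. Their mean number was 3.11 (median 2, highest 58) at shared anchors and 2.99 (median 1, highest 73) at ZNF143-only anchors. Summed over sites in the same way, the count per loop was 4.23 and 4.22. At least 3 ZNF143 loops were present at 33.0% of shared and 26.5% of ZNF143-only anchors, a difference of 6.59 points (4.55 to 8.61). At least 10 were present at 4.96% and 6.16%, in the opposite order. The difference at 3 loops did not hold in direction: it was 12.8 points at 10 kb, -2.34 points when overlap was required in place of 5 kb, and -4.02 points over sites with no other site within 10 kb. Of all shared anchors, 1437 had a summed ZNF143 count of exactly 2, and 1297 had 10 or more.

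The counts were concentrated in few members, and most strongly for ZNF143. The 473 members with the highest summed count in a list held 58.7% of the members' summed ZNF143 count in wild-type cells, against 42.0% for CTCF and 44.0% for RAD21. Across the 4739 members, Spearman's rho of summed counts was 0.79 between CTCF and RAD21, 0.23 between ZNF143 and CTCF and 0.16 between ZNF143 and RAD21, all in wild-type cells. These values describe members that share neighbours and loops. An anchor with many CTCF contacts was thus usually also an anchor with many RAD21 contacts, while its ZNF143 rank was only loosely tied to either.

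Shared anchors entered 8176 of the 11981 wild-type ZNF143 loops. Of these, 3180 joined a shared anchor to another, which is 26.5% of all ZNF143 loops (25.8 to 27.3; 17.1% when only loops with 3 or more counts were used), and 4996 had a shared anchor at 1 end. With each loop counted once, the other end was a ZNF143-only anchor in 3308 loops (40.5% of the loops at shared anchors), another shared anchor in 38.9%, an anchor near CTCF alone (13.3%) and an anchor near RAD21 alone (7.34%). In the CTCF list the partner was another shared anchor in 5142 of 11917 loops (43.1%) and a CTCF-RAD21 site in 4016 (33.7%). In the RAD21 list these partners made up 44.2% and 37.3% of 9823 loops. Loops between shared anchors were strong in the CTCF and RAD21 lists: they were 26.6% of all CTCF loops and 38.8% of the CTCF count, and 25.9% of RAD21 loops and 36.9% of the RAD21 count. For ZNF143 they were 26.5% of loops and 25.3% of the count.

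**Figure D1:**
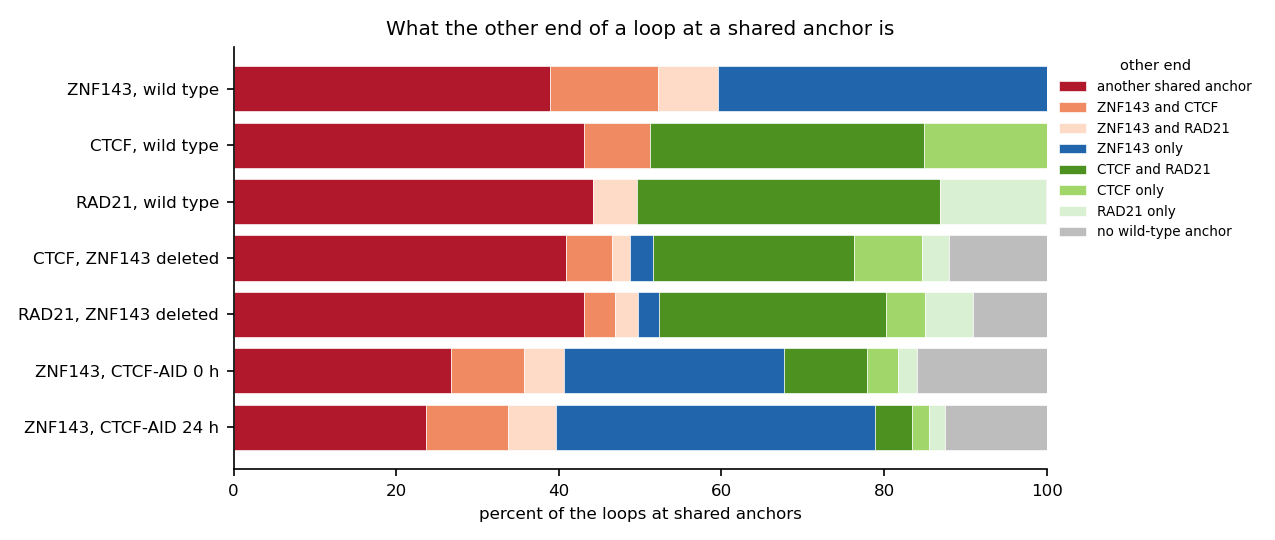
Percent of the loops at shared anchors by the class of the other end, in each of the 7 lists, with classes set from the wild-type lists. Another shared anchor (red) is the other end of 38.9% to 44.2% of loops in the wild-type and ZNF143-deleted lists and of 26.7% (0 h) and 23.6% (24 h) in the CTCF-AID lists. Wild-type ZNF143 loops could end at ZNF143 anchors only, so the classes open to the other end differ between lists.

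Many ZNF143 loops between shared anchors were listed as loops of the other proteins too. Of the 3180, 1878 (59.1%, 57.3 to 60.8) were also in the CTCF list, 1729 (54.4%, 52.6 to 56.1) in the RAD21 list and 1512 (47.5%, 45.8 to 49.3) in both. The remaining 1085 (34.1%, 32.5 to 35.8) were in neither, although both feet lay within 5 kb of a shared anchor. A shared anchor could itself lie up to 5 kb from the CTCF and RAD21 anchors. Loops listed for all 3 proteins had a median span of 104 kb and those listed for ZNF143 alone had one of 206 kb, with mean ZNF143 counts of 4.11 and 3.56. At least 1 loop listed for all 3 proteins was present at 2412 shared anchors (50.9%, 49.5 to 52.3).

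The 5 such loops with the highest ZNF143 count lay on chromosomes 17 and 19. The highest, of 80.7 kb, joined chr19:45906702-45909809 to chr19:45987998-45989832 with counts of 89 for ZNF143, 13 for CTCF and 5 for RAD21 in wild-type cells. In ZNF143-deleted cells it had 5 for CTCF and 7 for RAD21, and its ZNF143 counts in CTCF-AID cells were 97 at 0 h and 192 at 24 h. From the same right-hand anchor, a loop of 46.0 kb to chr19:45942137-45943668 had wild-type counts of 60, 33 and 47, deleted-cell counts of 18 and 18, and CTCF-AID counts of 70 and 67. Another, of 61.8 kb, to chr19:45925807-45928430 had 57, 9 and 9 in wild-type cells, was listed for RAD21 alone in deleted cells (4), and had 58 and 84 in CTCF-AID cells. These 3 loops formed a fan from the same foot. On chromosome 17, the loop of chr17:73850841-73852478 with chr17:73890848-73893820 had 68, 4 and 8 in wild-type cells, 5 for CTCF and no RAD21 listing in deleted cells, and 33 and 63 in CTCF-AID cells. The loop of chr17:43238143-43240282 with chr17:43274551-43276348 had 63, 21 and 26 in wild-type cells, 22 and 21 after deletion, and 44 and 35 in CTCF-AID cells.

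The 10 shared anchors with the highest ZNF143 count all lay on chromosomes 17 and 19, and 6 of them formed pairs of neighbours with the same loops. The highest pair, chr19:45987998-45989832 and chr19:45980865-45983019, had wild-type summed counts of 691 for ZNF143, 112 for CTCF and 102 for RAD21. Its counts were 38 for CTCF and 52 for RAD21 in deleted cells, and 1044 and 1353 for ZNF143 in CTCF-AID cells at 0 h and 24 h. Next came chr19:49147532-49150488, with 581, 49 and 24 in wild-type cells, 24 and 6 after deletion, and 821 and 851 in CTCF-AID cells. These places were chosen for their ZNF143 count; over all members the mean summed count was 13.2 for ZNF143, 21.7 for CTCF and 18.7 for RAD21.

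The next places lay on both chromosomes. The pair chr17:73856784-73858113 and chr17:73850841-73852478 had 513, 10 and 14 in wild-type cells, 13 and 7 after deletion, and 395 and 523 in CTCF-AID cells. The pair chr17:7122083-7123970 and chr17:7117224-7119347 had 480, 3 and 9, then 6 and 2, then 601 and 772. They qualified as shared with a CTCF count of 3. The anchor chr19:46026524-46027955 had 422, 14 and 14, then 4 and 8, then 484 and 333. It was the only one of the 10 with a lower CTCF-AID count at 24 h than at 0 h. Over all shared anchors the mean summed ZNF143 count was lower at 24 h, at 20.1 against 29.1 at 0 h. The last places, chr19:45906702-45909809 and chr19:49297700-49299687, had wild-type ZNF143 counts of 395 and 392, CTCF counts of 21 and 36 and RAD21 counts of 10 and 31, and their ZNF143 counts went from 709 to 890 and from 847 to 1163 between 0 h and 24 h.

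**Figure D2:**
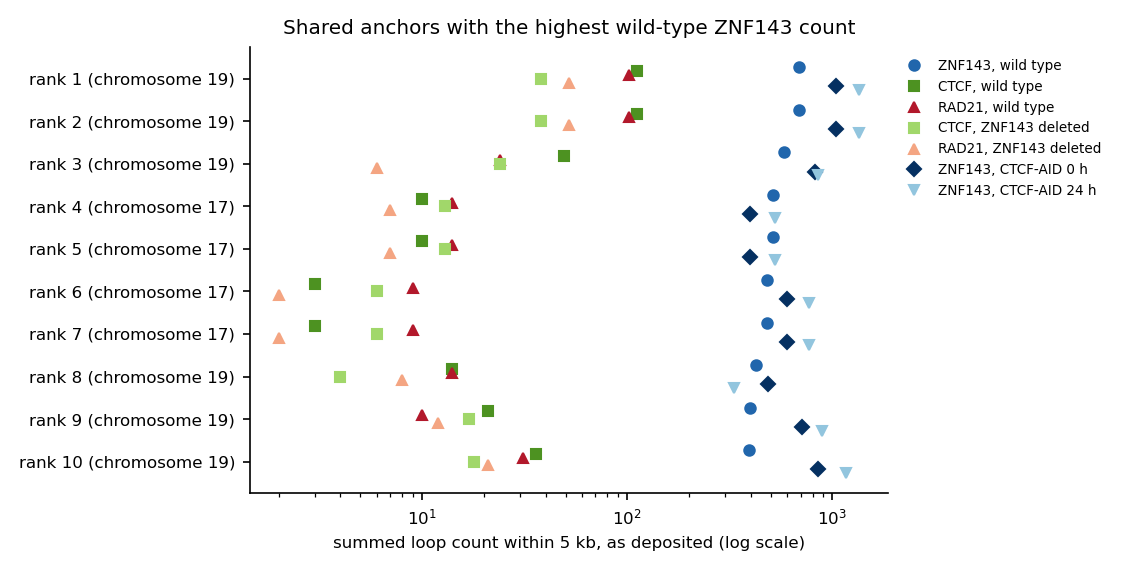
Summed loop count within 5 kb, as deposited (log scale), of the 10 shared anchors with the highest wild-type ZNF143 count, with 1 symbol per list; ranks 1 and 2, 4 and 5, and 6 and 7 are neighbours that share their loops. ZNF143 counts (circles, diamonds, light-blue triangles) lie between 333 and 1353 and CTCF and RAD21 counts between 2 and 112.

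In ZNF143-deleted cells, CTCF and RAD21 loops were found again more often at shared anchors than at CTCF-RAD21 sites. At least 1 CTCF loop was still listed at 4109 of 4739 shared anchors (86.7%, 85.7 to 87.6) and at 67.1% of CTCF-RAD21 sites (66.0 to 68.2), a difference of 19.6 points (18.1 to 21.1). RAD21 loops were listed at 78.8% (77.6 to 79.9) of shared anchors and 61.3% (60.1 to 62.4) of CTCF-RAD21 sites, a difference of 17.5 points (15.8 to 19.1). Shared anchors, unlike CTCF-RAD21 sites, were also in the wild-type ZNF143 list, which had the column layout of the deleted lists. How lists were made therefore cannot be told apart from the presence of ZNF143, here or in the count classes and loops below. Loops of both proteins were listed at 3411 shared anchors (72.0%), of CTCF alone at 698, of RAD21 alone at 321 and of neither at 309. Of ZNF143 anchors near CTCF alone, 53.7% were still listed for CTCF, and of those near RAD21 alone, 271 of 677 were still listed for RAD21. These anchors started from lower counts, with wild-type medians of 3 for CTCF and 2 for RAD21, against 12 and 10 at shared anchors. Shared anchors with 2 to 3 counts were still listed at 61.4% for CTCF and 51.1% for RAD21.

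Shared anchors started from higher counts, so the shares were also read within classes of wild-type count. With 4 to 7 CTCF counts, 77.3% of shared anchors and 63.1% of CTCF-RAD21 sites were still listed, a difference of 14.1 points (10.7 to 17.4). The difference was 15.8 points (11.4 to 20.0) at 2 to 3 counts, 7.07 (4.42 to 9.66) at 8 to 15, 2.72 (0.902 to 4.73) at 16 to 31 and 0.997 (0.215 to 2.89) at 32 or more. The RAD21 differences were 11.4 points (7.41 to 15.3), 10.4 (6.86 to 13.8), 8.99 (6.03 to 11.9), 3.86 (1.28 to 6.58) and 0.576 (-0.611 to 2.55), and the last interval included 0. The gap narrowed where nearly every site of either class was still listed.

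**Figure D3:**
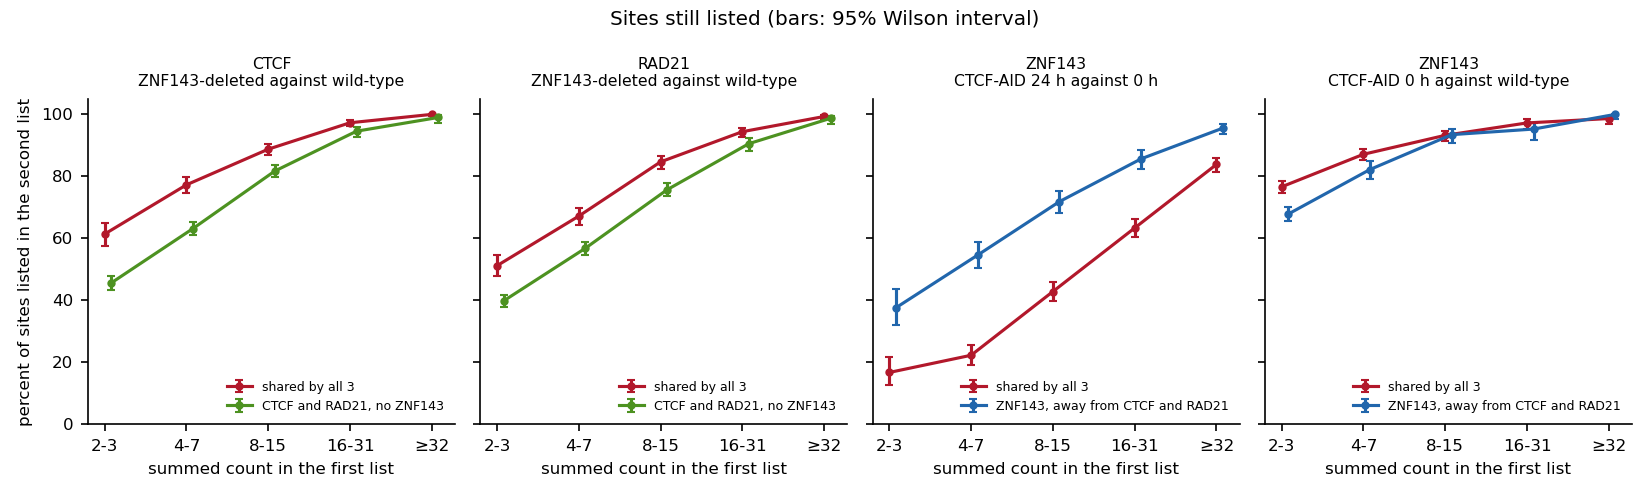
Percent of sites still listed in the second list of each pair, by summed count in the first list; points are shares with 95% Wilson intervals. Shared anchors (red) lie above CTCF-RAD21 sites (green) after ZNF143 deletion and below ZNF143-only anchors (blue) at 24 h of auxin.

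Loops gave the same order as sites. CTCF loops between shared anchors numbered 5142 in wild-type and 3846 in deleted cells, a ratio of 0.748 (0.717 to 0.780). The ratio was 0.579 (0.550 to 0.610) for loops from a shared anchor to a CTCF-RAD21 site and 0.490 (0.464 to 0.518) for loops between CTCF-RAD21 sites. For RAD21 the numbers were 4342 and 2699, a ratio of 0.622 (0.592 to 0.652), against 0.475 (0.449 to 0.503) and 0.432 (0.408 to 0.458). Over all loops the ratios were higher than between shared anchors, at 0.808 and 0.644. Classes were set from the wild-type lists. Loops from a shared anchor to no site of any class numbered 1 in wild-type and 1132 in deleted cells for CTCF. For RAD21 they numbered 6 and 569. All ratios are tied to the lower listed totals of the deleted lists, which were 0.573 and 0.450 times those of the wild-type lists. At a minimum count of 10 the ratios between shared anchors were 0.255 for CTCF and 0.269 for RAD21, against 0.0913 and 0.117 between CTCF-RAD21 sites. The same loop was found again for 58.4% (57.0 to 59.7) of CTCF loops between shared anchors and 38.0% (36.5 to 39.5) of those between CTCF-RAD21 sites, and for 51.2% and 34.8% of RAD21 loops. Among CTCF loops with a count of 2 these shares were 38.3% and 24.1%, and among those with 10 or more they were 94.0% and 83.7%.

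**Figure D4:**
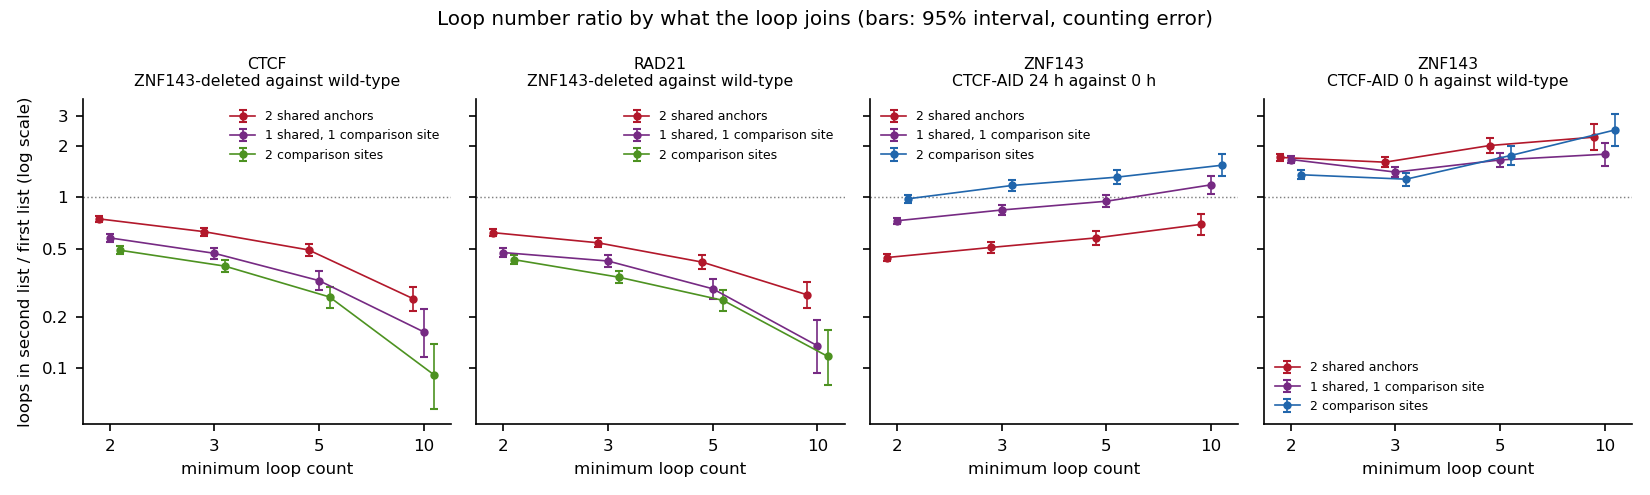
Number of loops in the second list divided by the number in the first (log scale), against the minimum loop count, for loops joining 2 shared anchors (red), a shared anchor and a comparison site (purple) and 2 comparison sites (green or blue); bars are 95% intervals for counting error. Red lies highest after ZNF143 deletion, at 0.748 and 0.622 with all loops, and lowest at 24 h of auxin, at 0.444.

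Relative to the listed totals, some shared anchors had lower and others higher counts in deleted cells. Counts were scaled to the smaller total of a pair, sites with at least 20 scaled counts in both lists together were kept, and a site was called lower or higher at a 2-fold change with 1 added to both counts. For CTCF, 1759 of 4739 shared anchors passed this minimum. Of these 233 were lower (13.2%, 11.7 to 14.9), where 14.9% of all sites were, and 183 were higher (10.4%), where 11.1% of all sites were. At CTCF-RAD21 sites 19.8% (17.1 to 22.7) were lower and 10.1% higher. For RAD21, 1112 shared anchors passed, with 112 lower (10.1%, 8.44 to 12.0; 13.4% of all sites) and 118 higher (10.6%; 10.5% of all sites), against 19.0% lower and 10.1% higher at CTCF-RAD21 sites. The median log2 ratios of shared anchors were -0.05 (quartiles -0.60 and 0.55) for CTCF and 0.01 (-0.52 and 0.55) for RAD21. At CTCF-RAD21 sites the medians were -0.18 and -0.24. These values depend on the scaling to totals: without it the medians of shared anchors were -0.86 and -1.14. The members' shares were near those of all sites, most of which were themselves shared anchors.

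These calls depend on the scaling. Without it, 1030 of 2338 shared anchors were lower for CTCF (44.1%) and 84 higher. For RAD21, 1104 of 1877 were lower (58.8%) and 21 higher. At CTCF-RAD21 sites 54.2% were lower for CTCF and 67.5% for RAD21. The difference in the share called lower between shared anchors and CTCF-RAD21 sites was -6.52 points for CTCF and -8.90 for RAD21, and ran from -2.26 (loops with 3 or more counts) to -10.1 (no scaling) for CTCF and from -2.76 (loops with 3 or more counts) to -13.0 (a minimum of 40) for RAD21. With loops of 3 or more counts the intervals of both differences included 0 (-5.87 to 1.34 and -5.94 to 0.404), so the difference was not detectable there, and neither was that of CTCF for sites with no other site within 10 kb (-3.76, -8.77 to 0.919).

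Shared anchors with a high ZNF143 count in wild-type cells were not missing more often from the deleted lists, in any class of CTCF or RAD21 count. Among shared anchors with 8 to 15 wild-type CTCF counts, 85.7% (81.9 to 88.8) of those with a ZNF143 count of 2 and 92.3% (88.6 to 94.9) of those with 10 or more were still listed for CTCF. The summed CTCF count in deleted cells was 0.535 and 0.738 times the wild-type one. With 32 or more CTCF counts the ratios were 0.415 and 0.529, and all 148 and 386 members were still listed. For RAD21 at 8 to 15 counts the shares were 78.6% and 89.3%, and the ratios 0.422 and 0.539. At 2 to 3 RAD21 counts the shares were 49.9% and 50.6%, with overlapping intervals.

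The shared anchors with the lowest scaled ratios of CTCF count, deleted to wild-type, lay on chromosomes 16, 17 and 19. At chr16:19896890-19898858 the CTCF count went from 49 to 3 (scaled log2 ratio -2.86) and the RAD21 count from 56 to 27, with a wild-type ZNF143 count of 3. At chr17:66258855-66259974 CTCF went from 32 to 2 and RAD21 from 19 to 10, and at chr19:48769718-48771024 CTCF went from 32 to 2 and RAD21 from 30 to 11 (log2 ratio -2.69 at both). Their ZNF143 counts were 2 and 7. A ZNF143 count of 2 or 3 was common, at 1813 of 4739 members.

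The highest CTCF ratios started from the lowest listed count. The CTCF count went from 2 to 29 at chr12:48172383-48174259, from 2 to 26 at chr12:120665104-120667002 and from 2 to 24 at chr6:43766355-43770096. RAD21 went from 13 to 12, from 12 to 2 and from 3 to 20 at the same places.

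For RAD21 the lowest ratios were at chr8:8886902-8889330 (59 to 3), chr10:125340630-125344359 (53 to 3) and chr8:28276448-28277885 (50 to 3). The CTCF counts there went from 41 to 10, from 36 to 13 and from 45 to 9. Their wild-type ZNF143 counts were 3, 3 and 2. The highest RAD21 ratios were at the chromosome 6 anchor above (3 to 20), at chr16:50705141-50706989 (6 to 28, with CTCF from 12 to 22) and at chr6:6696635-6697918 (5 to 20, with CTCF from 3 to 8). CTCF was higher in deleted cells at all 3.

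With CTCF depleted by auxin, ZNF143 loops were missing from shared anchors more often than from ZNF143-only anchors. Of 4073 shared anchors listed for ZNF143 in CTCF-AID cells at 0 h, 2190 were still listed at 24 h (53.8%, 52.2 to 55.3), against 73.2% (71.4 to 74.8) of ZNF143-only anchors, a difference of -19.4 points (-21.7 to -17.1). Anchors near CTCF alone had 60.0% (56.7 to 63.2) and anchors near RAD21 alone 54.9% (50.6 to 59.1). CTCF-RAD21 sites, which had no wild-type ZNF143 anchor, were listed for ZNF143 at 3568 of 6919 at 0 h (51.6%) and at 1051 at 24 h (15.2%), so fewer listed sites at 24 h were not particular to shared anchors. Of all 4739 shared anchors, 1883 were listed at 0 h and not at 24 h, 18 at 24 h and not at 0 h, and 648 at neither time. The mean number of ZNF143 loops per shared anchor was 7.01 at 0 h and 3.54 at 24 h, and at ZNF143-only anchors it was 6.13 and 4.82.

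The difference was present in every class of 0 h count. With 2 to 3 counts at 0 h, 16.7% of shared and 37.5% of ZNF143-only anchors were still listed. The shares were 22.2% and 54.6% at 4 to 7 counts, 42.8% and 71.8% at 8 to 15, and 63.3% and 85.7% at 16 to 31. With 32 or more they were 83.8% (81.5 to 85.9) and 95.6% (93.6 to 96.9). Even the best covered shared anchors were thus listed less often than ZNF143-only anchors of the same class.

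Loops were set apart by what they joined. ZNF143 loops between shared anchors numbered 5448 at 0 h and 2420 at 24 h, a ratio of 0.444 (0.423 to 0.466). Loops from a shared to a ZNF143-only anchor numbered 5510 and 4021, a ratio of 0.730 (0.701 to 0.760), and loops between ZNF143-only anchors 2615 and 2564, a ratio of 0.980 (0.928 to 1.04). Over all loops the ratio was 0.510 (0.501 to 0.518). The ratio did not follow the number of shared anchors alone: loops with a shared anchor at exactly 1 end numbered 14954 and 7820, loops with none 20003 and 10347, and loops from a shared anchor to a CTCF-RAD21 site 2097 and 465. At a minimum count of 10 the ratios for the 3 loop types first named were 0.695 (0.600 to 0.803), 1.18 (1.05 to 1.34) and 1.54 (1.33 to 1.79). The same loop was found again for 32.9% (31.7 to 34.2), 42.0% (40.7 to 43.3) and 56.8% (54.9 to 58.7) of the 0 h loops of these types, and for 24.7% (24.3 to 25.1) of all 0 h loops. As the share of loops at shared anchors, partners that were ZNF143-only anchors made up 27.0% at 0 h and 39.3% at 24 h, while other shared anchors made up 26.7% and 23.6% and CTCF-RAD21 sites 10.3% and 4.54%. The median span of loops between shared anchors was 184 kb at 0 h and 228 kb at 24 h.

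Scaled counts were described for sites above the same minimum. Of 1765 shared anchors that passed the minimum, 414 were lower at 24 h (23.5%, 21.5 to 25.5), where 16.4% of all sites were, and 133 were higher (7.54%, 6.39 to 8.86), where 16.0% of all sites were. Of the 414, 217 were not listed at 24 h and so passed the minimum through the 0 h list alone. Of 1247 ZNF143-only anchors, 76 were lower (6.09%, 4.90 to 7.56; 38 not listed at 24 h) and 318 higher (25.5%, 23.2 to 28.0). The median log2 ratios were -0.09 and 0.59, and that of all sites was 0.23. Without scaling, 936 of 2158 shared anchors were lower and 33 higher. Centred on the median ratio of all sites, 498 of 1765 were lower and 65 higher. For ZNF143-only anchors the split turned round without scaling, at 196 lower and 138 higher of 1397, and was 89 and 183 of 1247 with that centring. These calls are a description only, since many were fixed by the minimum.

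The count that remained was held by few members. The 473 members with the highest ZNF143 count held 53.3% of the members' summed count at 0 h and 74.1% at 24 h. Shared anchors with 32 or more 0 h counts had a summed count at 24 h of 0.808 times that at 0 h, whereas those with 16 to 31 had 0.430 times, those with 8 to 15 had 0.355 times, those with 4 to 7 had 0.253 times and those with 2 to 3 had 0.417 times. ZNF143-only anchors had 1.15, 0.860, 0.814, 0.768 and 1.07 times in the same classes. The ratio was lower at shared anchors in each class and was lowest at 4 to 7 counts in both.

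The share still listed at 24 h did not follow the wild-type CTCF count of a shared anchor in the same direction in every class of 0 h count. With 32 or more 0 h counts, 92.5% (88.6 to 95.1) of members with a CTCF count of 2 to 7 and 82.1% (77.7 to 85.9) of members with a CTCF count of 32 or more were still listed, and the summed ZNF143 count was 0.964 and 0.709 times that at 0 h. With 8 to 15 0 h counts these shares were 43.1% (38.0 to 48.4) and 35.0% (28.4 to 42.1), and with 4 to 7 they were 22.1% and 24.6%, with overlapping intervals. With 16 to 31 they were 68.0% and 62.8%, also with overlapping intervals, and the count ratios were 0.530 and 0.365. The order was also the opposite of that at 32 or more with 2 to 3 0 h counts, at 12.4% (7.66 to 19.4) of 121 members and 35.0% (18.1 to 56.7) of 20 members, which are few.

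The shared anchors with the lowest ratios of 24 h to 0 h had no ZNF143 loop listed at 24 h. At chr8:145055374-145057373 the ZNF143 count was 215 from 28 loops at 0 h and the site was unlisted at 24 h, with wild-type counts of 81 for ZNF143 and 8 for both CTCF and RAD21. At chr19:46272255-46274344 it was 191 from 26 loops at 0 h, with wild-type counts of 41, 27 and 6. At chr19:49345278-49348903 it was 160 from 24 loops at 0 h, with wild-type counts of 133, 44 and 32. The last of these was among the well-connected anchors of all 3 proteins in wild-type cells.

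The highest ratios were found on chromosome 19. At chr19:44023225-44024763 the ZNF143 count was 15 at 0 h and 130 at 24 h (log2 ratio 3.47), from 5 and 22 loops, and the wild-type count was 3. The neighbours chr19:48817129-48818577 and chr19:48822888-48824445 share their loops and had 14 at 0 h and 76 at 24 h (log2 ratio 2.80), from 7 and 22 loops. These anchors had wild-type CTCF counts of 11 and 25 and RAD21 counts of 4 and 2.

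Wild-type and untreated CTCF-AID cells were both profiled for ZNF143, with no protein removed on purpose. The layout of these lists differs with the cell line and cannot be told apart from it. The CTCF-AID list at 0 h held 2.90 times the summed count of the wild-type list, while the 24 h list held 0.719 times that of the 0 h list, so shares still listed are not alike between these pairs. ZNF143 loops were listed in CTCF-AID cells at 0 h at 85.9% (84.9 to 86.9) of shared and 79.1% (77.6 to 80.5) of ZNF143-only anchors, a difference of 6.87 points (5.16 to 8.60), or 3.13 with overlap required and 10.8 with the CTCF-AID counts divided by 2. By wild-type count the intervals of the difference included 0 from 8 counts upwards. Of 1168 shared anchors that passed the minimum, 215 were lower in scaled count (18.4%, 16.3 to 20.7; 19.7% of all sites) and 90 higher (7.71%; 8.0% of all sites), and of ZNF143-only anchors 20.6% were lower and 8.00% higher. Without scaling, 26 of 2237 shared anchors were lower and 1570 higher (70.2%, against 68.6% of ZNF143-only anchors). Centred on the median of all sites, -0.28 on the log2 scale, 132 of 1168 were lower (11.3%) and 146 higher (12.5%). ZNF143-only anchors then had 11.6% lower and 13.2% higher. The loop number ratios were 1.71 between shared anchors, 1.67 from shared to ZNF143-only anchors, 1.36 between ZNF143-only anchors and 3.37 over all loops. At a minimum count of 10 the first 3 were 2.25, 1.79 and 2.48, in another order.

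Some members had ZNF143 loops in the wild-type list alone. At chr19:56616009-56620480, chr19:49215927-49216987 and chr20:62713838-62715785 the wild-type ZNF143 counts were 50, 42 and 40, and none of the 3 was listed in CTCF-AID cells at 0 h or 24 h. All 3 were still listed for CTCF and RAD21 in ZNF143-deleted cells, with counts of 2 to 4. The highest ratios were at chr1:155138825-155141362 (2 in wild type and 76 in CTCF-AID cells at 0 h, log2 ratio 3.18), chr8:38241906-38243183 (2 and 69, 3.05) and chr19:39466813-39468388 (2 and 64, 2.94). Their 24 h counts were 45, 21 and 52.

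Over all 7 lists, 1673 shared anchors (35.3%, 34.0 to 36.7) had a loop in every list and 1777 (37.5%) in 6. A further 890 were in 5 lists, 319 in 4 and 80 (1.69%, 1.36 to 2.10) in the 3 wild-type lists that the rule required. Across members, Spearman's rho of summed ZNF143 counts was 0.65 between wild-type cells and CTCF-AID cells at 0 h and 0.68 between 0 h and 24 h. For CTCF it was 0.72 and for RAD21 0.69 between wild-type and ZNF143-deleted cells.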

How the data were processed

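The authors deposited 1 loop list per library with a whole-number count per loop, used as deposited. The submitters' processing notes name HiC-Pro and hg19; the loop caller and its filters are not given in the sources used here. No count of 1 is listed, and library depth is unknown. Coordinates are hg19, counted from 1. No hg19 sequence or annotation was used here, so anchors were not tied to genes, promoters or motifs.

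A site's loops are those with an anchor within 5 kb (gap between edges). A loop end near sites of more than 1 class was given 1 class, that of a shared anchor where there was one. A loop was found again when both anchors lay within 5 kb of the anchors of a loop in the other list. Shares carry Wilson, differences Newcombe and ratios exact binomial-split intervals (95%), all for counting error. Python 3.11.15, numpy 2.4.6, pandas 2.3.3 and scipy 1.17.1 were used, and the calculations were tested on simulated data.

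Members, comparison classes and alternatives were chosen with earlier results of these data known. Named regions are the 10 members with the highest wild-type ZNF143 count, the 3 lowest and the 3 highest scaled ratios per pair, the 5 loops with the highest ZNF143 count among those listed for all 3 proteins, and the sites nearest to 5 kb. Count classes within members were chosen after their values were seen.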

Additional observations from a re-analysis of the deposited data

How the results depend on the processing

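Of 97 combinations of a result and an alternative, 53 gave a value inside the 95% interval of the main setting, 42 fell outside that interval and 2 changed the sign of a difference whose interval had excluded 0; the cause was not tested except where fewer loops or sites entered. No paired analysis was possible because each group held 1 library. The motif counts planned for a genome of the files' build were not run. Sites with no other site within 10 kb, minimum counts of 5 and 10 for loop ratios, and count classes within members were chosen after seeing the data.

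The share of ZNF143 anchors that were shared was 42.9% with overlap required (0 kb), 54.4% at 10 kb, 37.7% with loops of 3 or more counts and 22.3% with 5 or more counts in the CTCF and RAD21 lists. Loops joining shared anchors made up 18.6%, 35.3% and 17.1% of ZNF143 loops under the first 3 of these.

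The difference in anchors with 3 or more ZNF143 loops reversed to -2.34 points at 0 kb and -4.02 for isolated sites, and was 12.8 at 10 kb, 2.45 with loops of 3 or more counts and 9.19 for sites no wider than the median member. For CTCF the last 2 settings gave 22.5 and 29.7 points, and for RAD21 15.2 and 24.3.

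After ZNF143 deletion, the difference in sites called lower was -2.26 points for CTCF with loops of 3 or more counts and -10.1 without scaling. For RAD21 it was -2.76 with loops of 3 or more counts, -13.0 with a minimum of 40 and -4.47 with a pseudocount of 5. The difference in sites still listed for CTCF was 21.6 with loops of 3 or more counts and 21.8 for isolated sites.

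At 24 h of auxin, the difference in sites called lower, which counts sites that passed the minimum through the 0 h list alone, was 17.4 points as first set, 29.3 points without scaling, 21.1 centred on the median, 24.9 and 8.96 with minimums of 10 and 40, 23.2 at 1.5-fold and 12.7 with CTCF-AID counts divided by 2. The difference in sites still listed was -28.4 at 0 kb, -13.6 at 10 kb, -23.8 with counts divided by 2 and -26.3 for isolated sites. The loop number ratio between shared anchors over that between ZNF143-only anchors, reported as 0.453, was 0.354 at 0 kb, 0.528 at 10 kb and 0.495 with loops of 3 or more counts.

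For untreated CTCF-AID against wild-type cells, the difference in sites called lower, -2.19 as reported, had an interval that included 0 and no settled sign: it was 2.96 at 0 kb, 1.23 at 10 kb, 0.668 with counts divided by 2 and 4.80 for isolated sites. It stayed negative under the other settings, among them -2.85 (-5.67 to -0.118) with a minimum of 10 and -2.78 with a minimum of 40. The difference in sites still listed was 3.13 at 0 kb, 9.55 at 10 kb and 10.8 with counts divided by 2, and the ratio of loop number ratios, 1.26 as reported, was 1.03, 1.39 and 1.13 under the same settings.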
